A study of Mus musculus with 8 samples.

Results

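RNase P and RNase MRP are RNA-protein enzymes, and the rows counting their RNA subunits in ovarian tissue were examined here. The rows were chosen by gene symbol as Rpph1 (the RNase P RNA), Rmrp (the RNase MRP RNA) and Rprl1, Rprl2 and Rprl3, which are annotated as RNase P RNA genes in addition to Rpph1. All 5 were found among 23107 genes of the count table, and all 5 passed the filter on low counts that left 14667 genes for testing. They were picked with their difference between RIP and input known. Their values between these groups are therefore a description, given with no test.

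RNase P removes the leader sequence of precursor tRNAs, and RNase MRP takes part in cutting the precursor of ribosomal RNA. Both enzymes work mainly in the nucleus and nucleolus, share most of their protein subunits, and carry RNAs made by RNA polymerase III that are neither translated nor polyadenylated. DCP1A, in contrast, is a cytoplasmic co-activator of mRNA decapping found in processing bodies. A growing oocyte builds up large stores of tRNAs and ribosomes.

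The samples were 4 input libraries of total RNA and 4 libraries of RNA recovered with an antibody against DCP1A (RNA immunoprecipitation, RIP), all from ovarian cortex of mice at postnatal day 8. Strain and genotype are not given in the labels, nor is any treatment. The stated question was which RNAs associate with DCP1A in primary oocytes, while the tissue also holds other cells. For the level of an RNA in these bulk samples, fewer cells of a type and less RNA per cell cannot be told apart. A difference between RIP and input compares an RNA's share of the recovered RNA with its share of total RNA. Each share is relative to the other RNAs in that library. Nothing states that replicates came from separate animals, so p-values reflect only how much these samples vary, and that variation may be technical. The 4 input and 4 RIP libraries include no control antibody library, and background binding is therefore unknown.

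Libraries held 13098154 to 25757620 counts. The markers matched the labelled tissue. All 8 oocyte markers (summed level 865 to 1365 CPM, the counts scaled to a common library size, in input and 972 to 1203 in RIP), all 6 granulosa cell markers (986 to 2388 and 1240 to 2080 CPM) and all 6 stromal markers (2846 to 4416 and 2983 to 5223 CPM) were present. Of the stromal markers, Dcn (-0.81 ± 0.29 on the log2 scale, RIP over input) and Nr2f2 (-0.69 ± 0.27) were lower with p below 0.05 before adjustment (edgeR adjusted p = 0.622 each), and their part in the results was not tested. The 3 oviduct markers summed to at most 3.86 CPM and the 3 blood cell markers in the table to at most 4.40 CPM in any library. Steroidogenic markers summed to 21.1 to 49.1 CPM in input and 33.7 to 58.8 in RIP. The input level of the Dcp1a transcript was 138 ± 35 CPM and its RIP level 142 ± 31 CPM (SD, n = 4 each). CPM values carry the TMM factor for library composition, and percents of counts do not.

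The RNAs made up a large part of the input libraries. Together they took 7.23%, 6.93%, 1.66% and 4.98% of all counts in inputs 1 to 4, and 1.15%, 0.335%, 0.153% and 0.208% in RIP libraries 1 to 4. Every RIP library lay below every input library, with RIP 1 closest to input 3. The mean was 5.20 ± 2.56% in input and 0.462 ± 0.466% in RIP (SD, n = 4 each). Rpph1 and Rmrp supplied most of this, between 71.8% and 96.6% of the members' counts in each library.

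**Figure D1:**
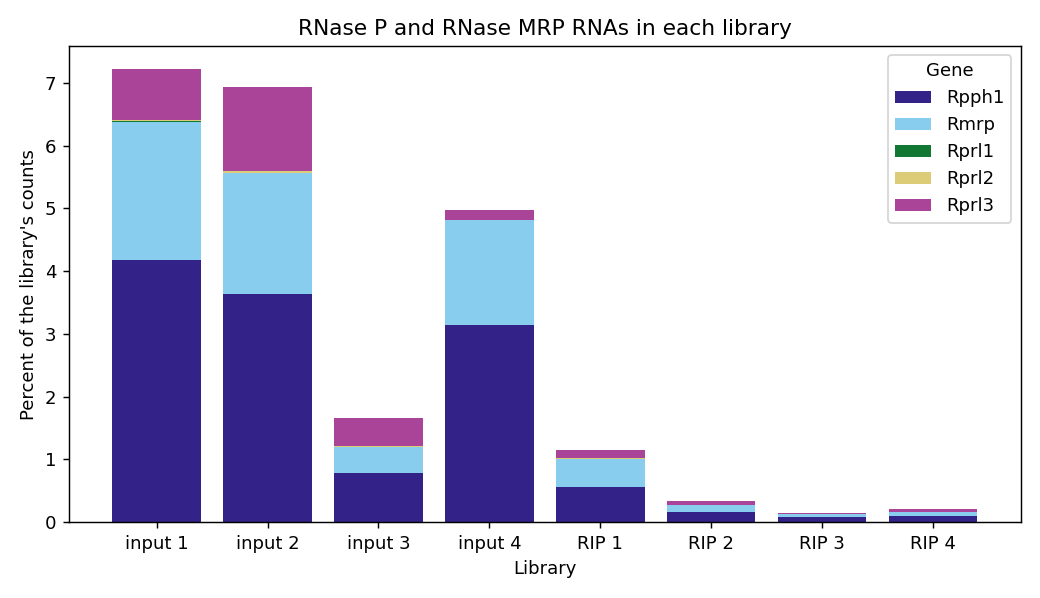
Percent of each library's counts (vertical axis) taken by Rpph1, Rmrp, Rprl1, Rprl2 and Rprl3, stacked, for 4 input and 4 DCP1A RIP libraries. Input 1 reaches 7.23% and input 3 only 1.66%, while RIP 1 is at 1.15% and the other RIP libraries are below 0.4%; Rprl1 and Rprl2 are too small to see.

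Rpph1, the catalytic RNA of RNase P, was the most abundant of them in every library. It lies on mm10 chromosome 14 at 50807447 to 50807771, a span of 325 bp. It took 4.17%, 3.63%, 0.783% and 3.14% of the counts in inputs 1 to 4, and ranked between place 2 and place 5 of all rows by count. In RIP libraries 1 to 4 it took 0.556%, 0.161%, 0.0786% and 0.106%, with ranks of 3, 18, 51 and 37. Input 3 was the low input and RIP 1 the high RIP library, and even these were in the order of the groups, by a factor of 1.41 in percent of counts and of 1.03 in CPM. The input mean was 30480 ± 17324 CPM and the RIP mean 2503 ± 2824 CPM (SD, n = 4 each), a log2 fold change of -3.61 ± 0.71 (SE) in the fit across all genes.

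Rmrp, the RNA of RNase MRP, lies on mm10 chromosome 4 at 43492785 to 43493059 (275 bp). It took 2.21%, 1.92%, 0.411% and 1.67% of the counts in inputs 1 to 4 and 0.456%, 0.115%, 0.0516% and 0.0592% in RIP libraries 1 to 4. RIP 1 exceeded input 3, so the groups overlapped through that pair of libraries on both scales. The input mean was 16164 ± 9182 CPM and the RIP mean 1919 ± 2408 CPM (SD, n = 4 each), a log2 fold change of -3.07 ± 0.76 (SE).

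Rprl3, of the same annotated class as Rpph1, was the third abundant row. It lies on mm10 chromosome 8 at 3803125 to 3803359 (235 bp). It took 0.820%, 1.34%, 0.456% and 0.163% of the counts in inputs 1 to 4 and 0.136%, 0.0575%, 0.0227% and 0.0417% in RIP libraries 1 to 4. Its lowest input was input 4, not input 3. Input 4 was above RIP 1 in percent of counts and below it in CPM (1482 against 1643), so whether the groups overlapped depended on the scaling. The input mean was 7363 ± 5946 CPM and the RIP mean 702 ± 645 CPM (SD, n = 4 each), a log2 fold change of -3.39 ± 0.70 (SE).

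Rprl2 and Rprl1 were far lower. Rprl2 (mm10 chromosome 3, 22251370 to 22251607, 238 bp) had 2794, 4490, 3174 and 828 counts in inputs 1 to 4 and 510, 306, 130 and 178 in RIP libraries 1 to 4. As for Rprl3, input 4 was its lowest input, above RIP 1 in percent of counts (0.00331% against 0.00312%) and below it in CPM (30.2 against 37.7). The log2 fold change was -3.50 ± 0.74 (SE), with input at 189 ± 154 and RIP at 16.7 ± 14.4 CPM (SD, n = 4 each). Rprl1 (mm10 chromosome 6, 69326937 to 69327174, 238 bp) had 602, 472, 195 and 803 counts in inputs 1 to 4 and 81, 18, 6 and 18 in RIP libraries 1 to 4. Its groups did not overlap on either scale, with input 3 as the low input and RIP 1 as the high RIP library, as for Rpph1. The input mean was 31.6 ± 18.8 and the RIP mean 1.99 ± 2.67 CPM (SD, n = 4 each), a log2 fold change of -4.02 ± 0.83 (SE).

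Counting error was small against these differences for the abundant rows. The exact binomial (Clopper-Pearson) 95% interval of a library's share reached at most 1.92% of its value to either side for Rpph1 and Rmrp and 2.91% for Rprl3, against 90.5% for Rprl1 with 6 counts in RIP 3. These intervals cover counting error only.

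**Figure D2:**
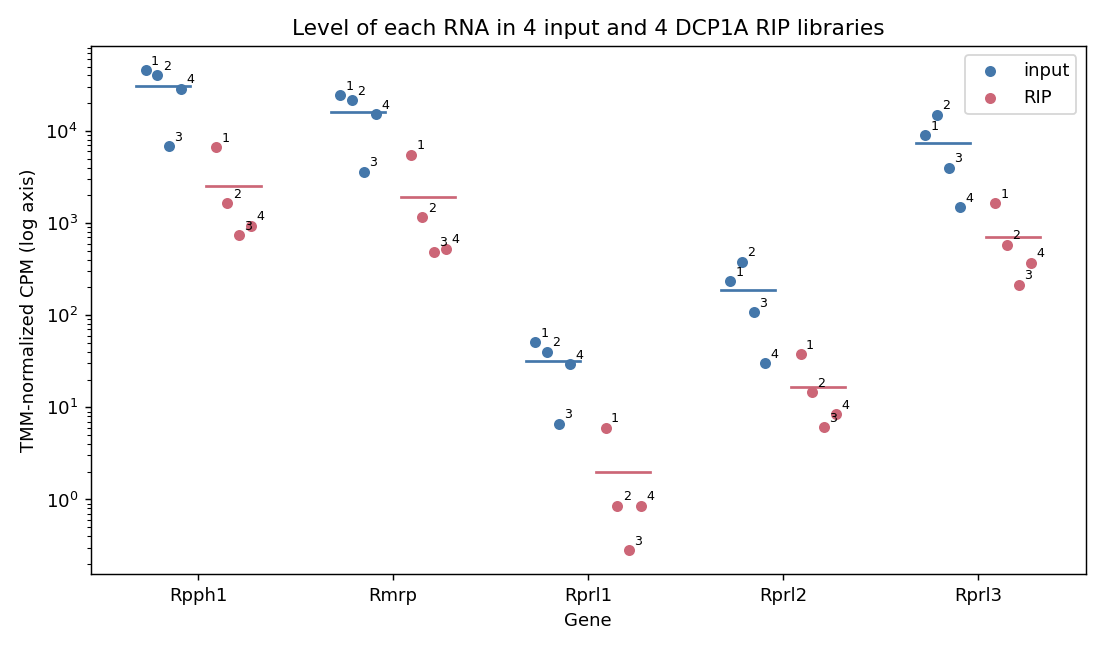
TMM-normalized CPM on a log axis for Rpph1, Rmrp, Rprl1, Rprl2 and Rprl3 in 4 input (blue) and 4 RIP (red) libraries, each point marked with its replicate number and each line the group mean. RIP 1 is the highest RIP library for all 5 RNAs, while the lowest input is input 3 for Rpph1, Rmrp and Rprl1 and input 4 for Rprl2 and Rprl3.

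Over the members, 2 of 5 (Rpph1 and Rprl1) had all RIP libraries below all inputs in CPM, and 4 of 5 (all but Rmrp) in percent of counts. Among all genes tested 2.52% lay lower without overlap in CPM and 1.73% in percent of counts. Since the members were chosen on this contrast, nothing is read from those shares. RIP 1 decided much of the picture. Without it all 5 members were free of overlap on both scales. The ratio of mean percent in input to that in RIP was then 25.5 in place of 13.0 for Rpph1, 20.7 in place of 9.12 for Rmrp, 43.2 in place of 17.2 for Rprl1, 17.6 in place of 11.5 for Rprl2 and 17.1 in place of 10.8 for Rprl3. Without input 3, the groups of Rmrp no longer overlapped (ratio 11.4). Without input 4, those of Rprl2 and Rprl3 no longer overlapped in CPM (ratios 14.7 and 13.5). Other removals lowered the ratios. The lowest were 10.7 for Rpph1, 7.40 for Rmrp and 13.5 for Rprl1 without RIP 3. For Rprl2 and Rprl3 they were 8.00 and 7.43 without input 2. In the fit across all genes, 16 of 14667 genes had a log2 fold change at or below that of Rpph1, and 32 at or below that of Rmrp. These counts include members, and nothing is read from them either, since the members were chosen on this contrast.

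Compared per length, the order of the levels was Rpph1, Rmrp, Rprl3, Rprl2, Rprl1 in 7 of 8 libraries. In input the levels were 93783 ± 53304 CPM per kb for Rpph1, 58779 ± 33391 for Rmrp, 31332 ± 25304 for Rprl3, 792 ± 646 for Rprl2 and 133 ± 79 for Rprl1 (SD, n = 4). In input 3 Rprl3 was above Rmrp, at 1.30 times its level per length. The input means of Rpph1 and Rmrp differed by less than the larger SD of the pair and more than the smaller. The same held for Rmrp and Rprl3. Within each of the 8 libraries Rmrp was below Rpph1, at 0.620 to 0.631 times its level per length in the inputs. In input 4 Rprl2 and Rprl1 were nearly level (1.03 times), while Rprl2 was 21.7 times higher per length in RIP 3.

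Ratios between the RNAs within a library need no scaling between libraries, and they showed which rows went together. In the inputs Rmrp had 52.9, 53.0, 52.5 and 53.4 counts per 100 counts of Rpph1, although the level of either RNA ranged more than 6-fold in CPM between these libraries. The mean was 52.9 ± 0.4 (SD, n = 4), a coefficient of variation of 0.741%. In RIP libraries 1 to 4 the ratio was 82.1, 71.2, 65.6 and 56.0, with a mean of 68.7 ± 10.9 (SD, n = 4). All RIP libraries lay above all inputs. The RIP values spread far more than the inputs, and the lowest of them, RIP 4, lay close to input 4, the highest input (56.0 against 53.4). The ratio was highest in RIP 1, where both RNAs were at their highest RIP level. This ratio comes from the contrast by which the rows were chosen and has no test.

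Rprl1 followed Rpph1. In inputs 1 to 4 there were 0.110, 0.0989, 0.0967 and 0.102 counts of Rprl1 per 100 of Rpph1, and in RIP libraries 1 to 4 there were 0.0893, 0.0525, 0.0378 and 0.0913. The RIP values were all below the inputs, but the intervals of RIP 1 and RIP 4 (0.0709 to 0.111 and 0.0541 to 0.144) reached across the input values. Rprl2 followed Rprl3. There were 2.60, 2.55, 2.70 and 2.04 counts of Rprl2 per 100 of Rprl3 in inputs 1 to 4, and 2.29, 2.50, 2.84 and 2.29 in RIP libraries 1 to 4. The groups had the same mean within their spread (2.47 ± 0.30 in input and 2.48 ± 0.26 in RIP, SD, n = 4 each), and the whole range over 8 libraries was 1.39-fold.

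The Rprl3 and Rpph1 rows, in contrast, did not keep a ratio among the inputs. There were 19.6, 36.9, 58.3 and 5.18 counts of Rprl3 per 100 of Rpph1 in inputs 1 to 4, an 11.2-fold range. In RIP libraries 1 to 4 the values were 24.5, 35.7, 28.9 and 39.4, a 1.61-fold range that lay inside that of the inputs. Compared with input 3, input 4 had more Rpph1 and less Rprl3. How reads that match more than one of these related genes were assigned is not given in the sources used here. The counts of Rpph1, Rprl1, Rprl2 and Rprl3 may therefore hold reads of each other, which was not tested.

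**Figure D3:**
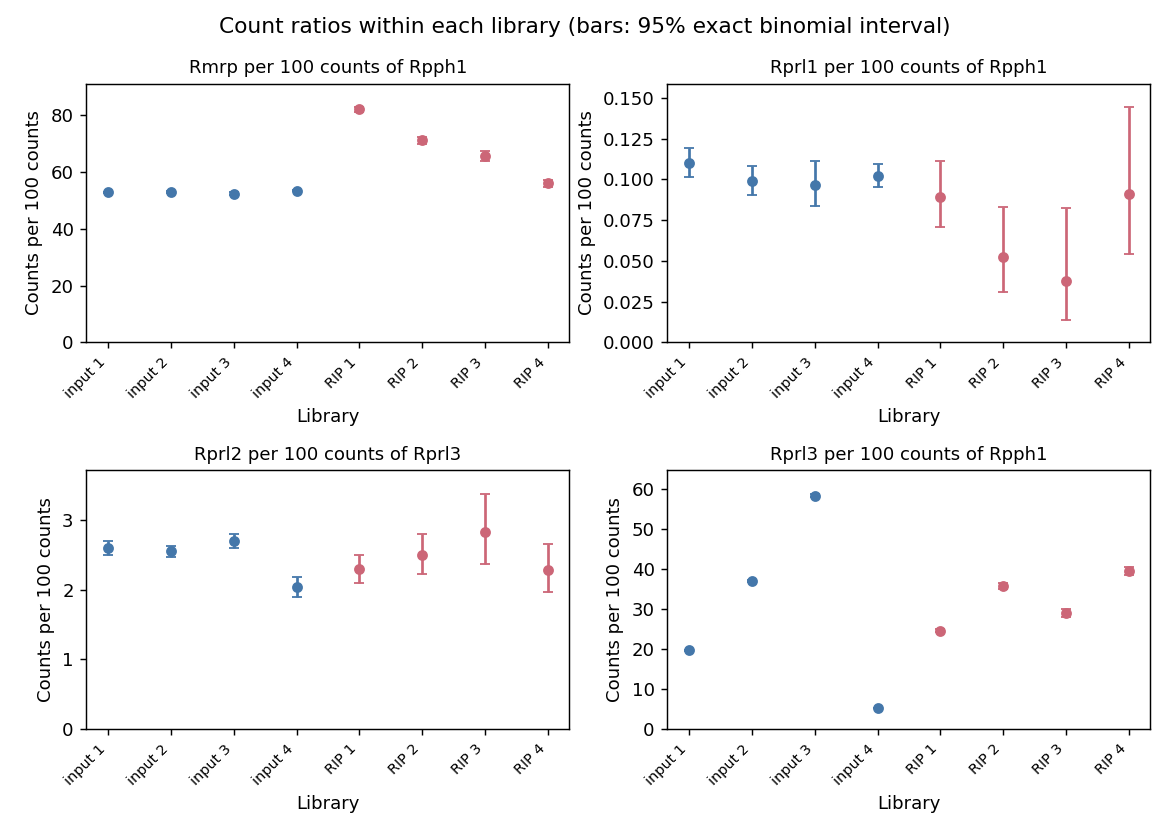
Counts of one RNA per 100 counts of another in each of 4 input (blue) and 4 RIP (red) libraries, with exact binomial 95% intervals that cover counting error only. Rmrp per Rpph1 is flat in input (52.5 to 53.4) and higher in RIP (56.0 to 82.1), Rprl2 per Rprl3 keeps between 2.04 and 2.84, and Rprl3 per Rpph1 ranges from 5.18 to 58.3 among the inputs.

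After removal of the group means, the libraries still deviated together for these pairs. The Pearson correlation of deviations in log2 CPM, a description over 8 libraries that share depth and composition, was 0.996 for Rpph1 with Rmrp, 0.977 for Rpph1 with Rprl1 and 0.993 for Rprl2 with Rprl3. It was 0.671 for Rpph1 with Rprl3 and 0.603 for Rpph1 with Rprl2. Input 3 lay 1.84 below the input mean on the log2 scale for Rpph1 and RIP 1 lay 2.01 above the RIP mean. For Rprl3 input 4 lay 1.84 below and RIP 1 lay 1.65 above.

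Genes with the pattern most like Rpph1, by Pearson correlation of log2 CPM over all 8 libraries, were Rmrp (0.996), Rprl1 (0.994), Prrg3 (0.982), the small nucleolar RNA Snord23 (0.978) and the vault RNA Vaultrc5 (0.977). For Rmrp they were Rpph1, Rprl1 (0.986), Prrg3 (0.976), Snord23 (0.974) and the small nucleolar RNA Snord67 (0.970). Snord23 had 59.2 ± 52.4 CPM in input and 2.85 ± 3.56 in RIP, Snord67 at 16.9 ± 11.4 and 1.95 ± 1.83, and Vaultrc5 at 1999 ± 1423 and 46.3 ± 60.7 (SD, n = 4 each). Prrg3, a protein-coding gene, had a similar order of libraries but a much smaller difference, from 58.7 ± 6.1 to 39.8 ± 6.7 CPM. With Rprl3, a choice added after its values were seen, the closest were Rprl2 (0.997), the respiratory chain gene Cox6c (0.973) and the small nucleolar RNAs Snord17 (0.964) and Snora23 (0.959), with the protein-coding gene Gm5148 (0.962). These correlations include the difference between RIP and input. With the group means removed, Rmrp was again the closest to Rpph1, followed by the protein-coding genes Adcy6, Tnrc18, Col4a5 and Col4a4, while Rprl1 took place 14, Vaultrc5 place 171, Prrg3 place 203 and Snord23 place 243 among the genes tested. The gene closest to Rmrp was then Col4a4, with Rpph1 at place 2 and Rprl1 at place 42. Shared deviations of this kind were therefore also found in mRNAs. By Spearman's rho, Rprl1 and Rnu73b had the same order of the 8 libraries as Rpph1 (rho of 1), and Rmrp had a rho of 0.976.

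Other short structured RNAs in the table give the setting for these values. Of 9 such rows tested, 2 fell in RIP in the edgeR quasi-likelihood fit, with p adjusted by Benjamini-Hochberg over all genes (Rnu11 and Rnu12, RNAs of the minor spliceosome, adjusted p = 0.00499 each). The list was partly chosen on these libraries, so its direction is not independent evidence. Over all genes 0.0409% were called lower and 0 higher by this test. Before adjustment, 628 genes (4.28%) were lower and 462 (3.15%) higher with p below 0.05. The median log2 fold change was -2.94 over the 9 rows and -0.02 over all genes. The small nucleolar RNA Snord17 (-2.94 ± 0.54, SE, adjusted p = 0.118) and Vaultrc5 (-5.44 ± 1.03, 0.258) did not pass in edgeR. In DESeq2 both were lower, with adjusted p = 0.00893 and 0.000707, so that 4 of the 9 rows passed there. Over all 14667 genes DESeq2 called 43 lower and 13 higher. Before adjustment 6 of the 9 rows were lower and 1 higher in edgeR with p below 0.05. The small Cajal body RNA Scarna13 was the higher one, at 61.6 ± 25.8 CPM in input and 119 ± 48 in RIP (0.96 ± 0.36, edgeR adjusted p = 0.622), with groups that overlapped. Scarna2 (0.21 ± 0.39) and the telomerase RNA Terc (0.19 ± 0.78) also had values above 0. Scarna13, Scarna2 and Terc were chosen after their values were seen. Nuclear long noncoding RNAs had a median log2 fold change near 0, with values from -0.48 ± 0.47 (Malat1) to 0.88 ± 0.29 (Kcnq1ot1, SE). Malat1 had 8529 ± 7017 CPM in input and 6122 ± 2392 in RIP, Meg3 at 73.2 ± 45.1 and 64.7 ± 12.8, Xist at 713 ± 220 and 917 ± 299, and Kcnq1ot1 at 283 ± 119 and 520 ± 112 (SD, n = 4 each). Input 3 was the highest input for Malat1, at 18714 CPM against 3155 to 7454 in the other inputs. Of 5 in this group, 0 passed over all genes, 1 (Kcnq1ot1) was higher with p below 0.05 before adjustment, and the median was 0.10.

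The mRNAs of the protein subunits of RNase P and MRP were tested in the same fit, because they played no part in the choice of the RNA rows. None passed in either direction. Of 11 names fixed for this list, 10 were in the table and tested, 0 were higher or lower by edgeR's adjusted p, by DESeq2 or by limma voom, and 0 had p below 0.05 before adjustment. Over all genes 0.0409% were lower and 0 higher by edgeR's adjusted p. Before adjustment 4.28% were lower and 3.15% higher with p below 0.05. The median log2 fold change of the 10 mRNAs was -0.14, against -0.02 over all genes tested. Of these 10 mRNAs 8 lay below 0, against 7578 of the 14667 genes tested. The summed level of the 10 mRNAs was 126 to 178 CPM in the inputs and 114 to 140 CPM in the RIP libraries.

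Rpp21, a subunit of RNase P, had the lowest p. It was at 25.1, 31.8, 33.7 and 23.4 CPM in inputs 1 to 4 and at 27.7, 12.1, 16 and 13.6 CPM in RIP libraries 1 to 4. RIP 1 lay among the inputs and the other RIP libraries below them, with a log2 fold change of -0.72 ± 0.35 (SE, edgeR adjusted p = 0.680). Rpp38 was at 9.41 ± 5.38 and 5.47 ± 1.04 CPM (-0.78 ± 0.56), and Rpp30 at 7.23 ± 2.61 and 4.79 ± 3.43 CPM (-0.59 ± 0.66). Pop7 was the highest, at 6.29 ± 2.80 and 9.21 ± 5.07 CPM (0.55 ± 0.62). All of these had overlapping groups.

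The other subunits lay near 0. Pop1, the largest protein of both enzymes, had 7.54 ± 3.41 CPM in the inputs and 7.76 ± 2.38 after RIP (log2 0.04 ± 0.53, SE), and Pop4 at 11.1 ± 6.4 and 10.4 ± 3.1 (-0.09 ± 0.49). Pop5 was at 33.8 ± 11.1 and 32.3 ± 0.7 CPM (-0.07 ± 0.30), the most precise of the list. Rpp14 had a log2 fold change of -0.19 ± 0.39, Rpp25 one of -0.21 ± 0.59 and Rpp40 one of -0.08 ± 0.55. The approximate 95% intervals of the 10 subunit mRNAs ran from -2.00 (the lower bound of Rpp30) to 1.86 (the upper bound of Pop7) on the log2 scale. The fitted values of the 5 RNAs were between -4.02 and -3.07, with SEs of 0.70 to 0.83. The difference between the RNAs and the subunit mRNAs was not tested, since the RNAs were chosen on their contrast.

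**Figure D4:**
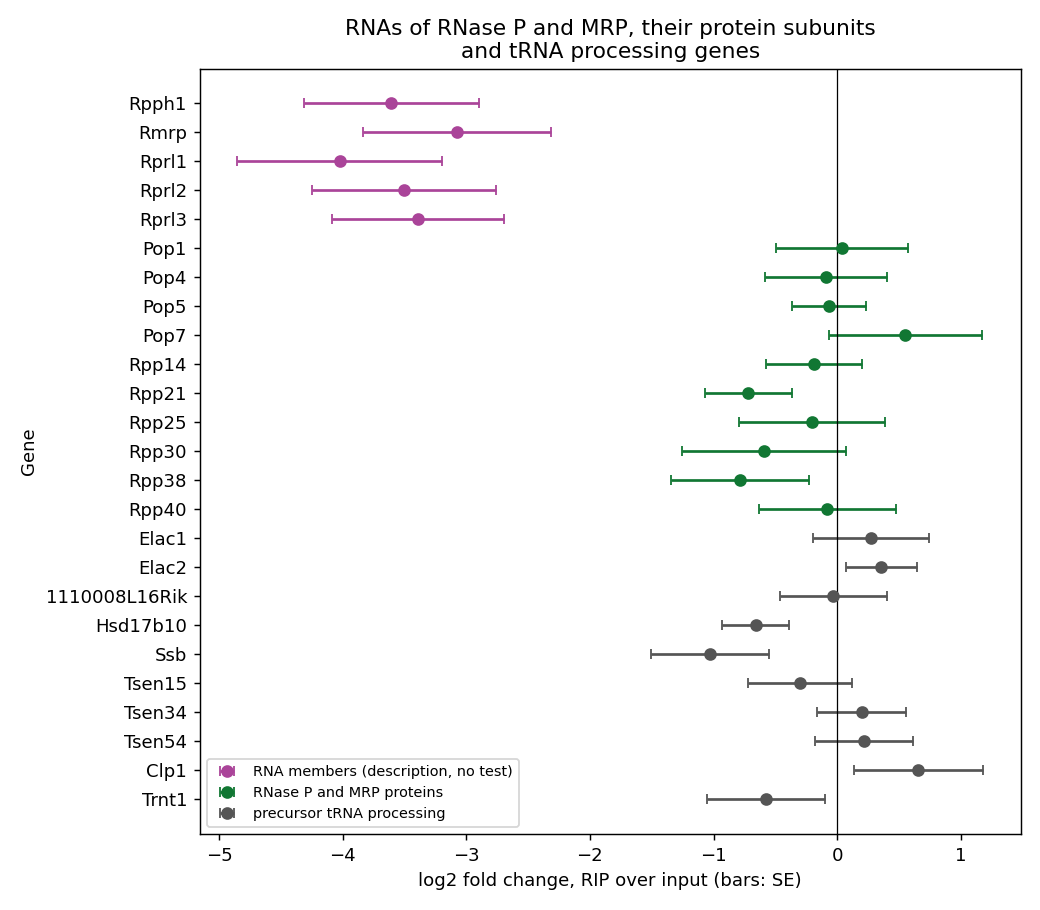
log2 fold change of RIP over input with its SE for the 5 RNAs (purple, a description with no test), 10 mRNAs of RNase P and MRP protein subunits (green) and 10 mRNAs of precursor tRNA processing (grey). The RNAs lie between -4.02 and -3.07, the subunit mRNAs between -0.78 and 0.55 and the tRNA processing mRNAs between -1.03 and 0.66.

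Other genes of tRNA maturation were also measured. Of 10 tested, 0 passed edgeR's adjusted threshold (0.0409% over all genes) and 2, Ssb and Hsd17b10, were lower with p below 0.05 before adjustment (4.28% over all genes), with a median log2 fold change of 0.083. Ssb, which encodes the La protein that binds the ends of new RNA polymerase III transcripts, had 80.8 ± 74.2 CPM in input and 39.6 ± 14 in RIP (-1.03 ± 0.47, SE, adjusted p = 0.665). Input 3 raised that input mean, at 191 CPM against 58.6, 38.4 and 35.1 in inputs 1, 2 and 4. The RIP libraries were at 22.3 to 53.1 CPM, so the groups overlapped. Hsd17b10, a subunit of the mitochondrial RNase P, which has no RNA, was at 52.4 ± 12.1 and 33.1 ± 3.1 CPM (-0.66 ± 0.27, adjusted p = 0.625). Clp1, a gene of tRNA splicing, was at 0.66 ± 0.52 on the log2 scale. Elac2, which encodes the enzyme that trims the 3′ end of precursor tRNAs, was at 0.36 ± 0.29.

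The machinery that transcribes such genes was tested in the same fit. Of 24 genes of RNA polymerase III and its promoter factors, 0 passed edgeR's adjusted threshold, which only 0.0409% of all genes did, and 0 had p below 0.05 before adjustment, against 4.28% lower and 3.15% higher over all genes. The median was -0.03. The lowest p values were those of the subunit gene Polr3g (34.2 ± 13.6 CPM in input and 19.3 ± 10.8 in RIP, -0.83 ± 0.42), the TATA-binding protein gene Tbp (-0.71 ± 0.40), Polr3f (-0.59 ± 0.33) and Polr1c (0.63 ± 0.36). Of 15 genes of ribosomal RNA processing, 0 passed, with 2 higher and 1 lower before adjustment (p below 0.05) and a median of 0.07. Among them Npm1, which encodes the nucleolar protein nucleophosmin, was at 342 ± 212 and 173 ± 43 CPM (-0.98 ± 0.34, edgeR adjusted p = 0.622). Rrp12 was at 27.8 ± 18 and 67.7 ± 13.6 CPM (1.28 ± 0.44, 0.622), Rrp1 had 0.60 ± 0.26 and Nol9 0.53 ± 0.28 on the log2 scale.

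Genes beside the RNA genes could be compared only for Rpph1, Rmrp and Rprl2, where their log2 fold changes lay between -1.22 and 0.70. For Rprl1 and Rprl3 no neighbour had counts to compare. Parp2, a DNA repair enzyme gene that begins 125 bp beyond the end of Rpph1, had 95, 75, 771 and 480 counts in inputs 1 to 4 and 120, 272, 265 and 425 in RIP libraries 1 to 4. In input 3, where Rpph1 was low, Parp2 was at its highest, and its log2 fold change was -0.10 ± 0.48 (SE, edgeR's test with Benjamini-Hochberg adjustment, adjusted p = 0.972). On the other side Ccnb1ip1, 11718 bp away, was at -1.22 ± 0.92 (adjusted p = 0.787). Ccdc107, 280 bp beyond Rmrp, had 10.9 ± 2.9 CPM in input and 17.6 ± 2.8 in RIP (0.70 ± 0.38, adjusted p = 0.712), while Sit1 on the other side had 0 counts in all 8 libraries. Tbl1xr1, 34775 bp before Rprl2, was at -0.53 ± 0.25 (adjusted p = 0.679), and Cd209a, 54140 bp before Rprl3, had 0 counts in all libraries. Rprl1 lies within the annotated immunoglobulin kappa locus Igk. Igk and its segments Igkv12-67 and Igkv12-66, and the pseudogenes Gm37636 after Rprl2 and Gm7381 after Rprl3, had no row in the count table. Apart from Igk, no annotated gene overlaps any of the 5 RNA genes.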

How the data were processed

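The authors deposited 1 table of estimated counts (expected counts) per gene, 23107 genes in 8 libraries, made from reads on the mm10 genome build per the submitters' processing notes. Per the labels' protocols, RIP used a Magna RIP kit and libraries a SMARTer stranded total RNA kit with Pico input. The sources used here do not give the aligner, the counting tool, the annotation or the use of strand, and reads of antisense or overlapping genes can therefore be mixed. At most 1.85% of a library's values were not whole (tolerance 1e-09). Values were rounded, and the test designed for counts was kept.

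In R 4.3.3, edgeR 4.0.16 was run with TMM, a filter on low counts (filterByExpr, at least 10 in enough libraries and 15 in total) and the robust quasi-likelihood test, adjusted by Benjamini-Hochberg at 0.05. DESeq2 1.42.0 and limma 3.58.1 were alternatives, with others given in the closing section. The script was tested on simulated data. SEs are approximate, the size of the log2 fold change over the square root of F, and their intervals use its degrees of freedom.

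Members and lists were chosen with earlier results of these data known. The naming rule took all members, all protein subunits, 4 genes with the lowest p of each other list, gene neighbours, 5 genes most like Rpph1 and 5 like Rmrp, and Dcp1a. A gene of the precursor tRNA processing list is not reported here and was left out of that list's counts and median. Positions come from RefSeq, assembly GRCm38.p6 (mm10).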

Additional observations from a re-analysis of the deposited data

Results flagged for a closer look

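Of 42 groups of 4 values checked, 2 held a library set apart from the other 3 by Dixon's 95% criterion, where chance flags about 1 in 20 groups. Both were RIP 1. Rmrp took 0.456% of the counts there, against 0.0516% to 0.115% in the other RIP libraries. Rprl1 took 0.000496%, against 2.97e-05% to 9.65e-05%.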

How the results depend on the processing

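All 5 RNAs kept a negative log2 fold change under each of 19 alternatives, which did not include limma voom. They were chosen on this contrast in the same libraries, so the kept sign is not independent evidence. Leaving out 1 library at a time gave -4.79 to -3.30 for Rpph1, -4.48 to -2.75 for Rmrp, -5.56 to -3.64 for Rprl1, -4.28 to -2.90 for Rprl2 and -4.24 to -2.78 for Rprl3, and the lowest value was without RIP 1 for each. The protein subunit list had 0 genes called in either direction under every alternative run. Its median, -0.14, ran from -0.32 without input 4 to 0.00 with the replicate number as a block (-0.000559). Counts over all genes, 0 higher and 6 lower, were 13 and 42 with the replicate block, 12 and 43 with libraries 1 and 2 against 3 and 4 as a block, 3 and 24 within libraries 1 and 2, and 13 and 43 by DESeq2. Deviations of same-numbered input and RIP libraries correlated at 0.162, 0.0915, 0.178 and 0.118. Not every library correlated best with its own number, so the numbers were not taken as pairs. Every best match did lie within libraries 1 and 2 or within libraries 3 and 4. The main fit takes no account of structure that inputs and RIP libraries may share in this way. With limma voom and sample weights 0 were higher and 20 lower. Leaving out 1 library gave 0 to 1 higher and 4 to 16 lower, with 15 lower without input 3 and 16 without RIP 1. The cause was not tested. Depth limits Rprl1 most, with 6 to 81 counts in RIP. Percents of counts depend on the abundant rows in the total. With the 10 largest rows, Rpph1 among them, left out of the total, the mean Rpph1 count came to 3.98% of it in input, in place of 2.93%. In RIP it came to 0.313% in place of 0.225%.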
